A study of Mus musculus with 6 samples.

Results

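The genes described here are the members of the epidermal differentiation complex, a cluster on mouse chromosome 3 that holds most of the genes for the cornified envelope. They were chosen by name: every gene whose symbol begins with Lce or Sprr and a digit, and Lor, Ivl, Flg, Flg2, Hrnr, Rptn, Tchh, Tchhl1, Crnn, Crct1, Kprp, Prr9, Pglyrp3 and Pglyrp4. The S100 genes of the locus were left out. This rule found 52 of the 54532 genes in the deposited table, made up of 14 Lce1 genes, 7 Lce3 and Lce6a genes, 17 Sprr genes, 7 fused S100 genes and 7 single genes. They lie between positions 90726906 and 93471980 of chromosome 3 in GRCm38, a span of 2.75 Mb, and all but Pglyrp4 lie at or beyond 92014583. Expression was measured by RNA-seq of back epidermis in 2 genotypes of mice, with 3 samples each. The controls were Spry1flox/flox and carried no Cre. The knockouts, called Spry1_KO, were Spry1flox/flox with K14-Cre-ERT2, a Cre recombinase that tamoxifen activates and that the keratin 14 promoter drives in basal keratinocytes. Both genotypes were given oral tamoxifen, 0.1 mg for each g of body weight, on 4 occasions a week over 4 weeks. No sample carried Cre without the floxed gene, so Cre activity and loss of Spry1 cannot be told apart as sources of a difference. The labels give no age and do not say that the samples were separate animals, so p-values measure the spread between these samples, which may be technical.

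Keratinocytes that leave the basal layer replace their plasma membrane with the cornified envelope, a shell of proteins that transglutaminases cross-link to each other. Involucrin is laid down early and loricrin is its main component, the small proline-rich proteins (Sprr) act as cross-bridges between them, and the late cornified envelope proteins (Lce) are added near the end. The fused S100 proteins carry an S100 domain before long repeats, and the best known of them, profilaggrin, is cut into filaggrin, which packs keratin filaments. Sprr and Lce3 genes are known to be induced in wounded and inflamed skin, while Lce1 genes and Lor belong to the resting epidermis.

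Spry1, the floxed gene, was measured at 25.8, 28.2 and 34.4 FPKM in the controls, against 1.06, 1.49 and 1.28 FPKM in the knockouts (fragments scaled to exon length and to a total for each sample, so that genes of different length can be compared). Its log2 fold change was -3.74 ± 0.13 (SE, limma adjusted p 7.21e-06). The values that came out as whole reads summed to between 17193596 and 19875838 reads per sample. Of 12629 genes whose mean reached 1 FPKM, 54.0% passed a limma adjusted p of 0.05, with 29.6% higher and 24.4% lower in the knockout. The groups did not overlap in either direction for 64.2% of these genes, with 34.9% higher and 29.4% lower in all 3 knockouts. One library stood apart within its group. On the second principal component, which held 8.5% of the variance, Control replicate 3 lay at -32.2 and the other controls at 15.6 and 17.4. It was low for many genes of the complex. Among all tested genes, 4.92% were less than 50% as high in Control replicate 3 as in the mean of the other controls. Among the 48 tested members, 33 (68.8%) were that low. Leaving out genes at 0 in both other controls, the median level of members was 13.7% of the other controls, against 98.1% over all tested genes. Some of the 33 rest on few reads, such as Sprr2e with 1, 3 and 0 reads and Sprr2i with 3, 3 and 0 reads in Control replicates 1 to 3. Genes outside the complex were low in it too, such as Csta1, at 7.28 FPKM against 38.0 and 39.2 FPKM in the other controls, and Asprv1, at 102 FPKM against 416 and 476 FPKM, which were picked after their values were seen. Counts and fold changes of members are therefore given with and without this library. Without it, 58.0% of 12579 tested genes passed, with 31.6% higher and 26.3% lower. What sets the library apart was not tested.

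Of the 52 members, 36 were higher in every knockout than in every control, 4 were lower, and 12 overlapped. Over all tested genes, 34.9% were higher and 29.4% lower in this way. The 4 members below the filter were Sprr2c-ps, which was at 0 in all samples, and Sprr3, Crnn and Tchhl1. Of the 48 tested members, 30 rose, 4 fell and 14 did not pass the threshold (limma, adjusted over all genes tested). Of these 48, 18 reached the filter only through the knockout samples and so had to be higher there. They are given below as values with no p, and carry no weight in the count. The other 30 had a mean of at least 1 FPKM in both genotypes. Among these, 15 were higher in every knockout than in every control, 4 were lower and 11 overlapped. Of the 30, 12 rose, 4 fell and 14 did not pass, where 29.6% of all tested genes rose and 24.4% fell. Their median log2 fold change was 0.85, against 0.03 over all genes tested, and was not taken without Control replicate 3. Over all tested members, those passing only through the knockouts included, the median was 2.43 with Control replicate 3 and 1.79 without it. A gene that did not pass is not shown to be equal in both genotypes. Without Control replicate 3, 33 of 49 tested members rose and 11 fell, against 31.6% and 26.3% of all genes tested in that fit. The 33 include the members that reached the filter only through the knockouts, Crnn among them, which had to be higher there. All 11 that fell were among the 30 members with a mean of at least 1 FPKM in both genotypes. Rises and falls were therefore much closer in number among these 30 than the counts of 33 and 11. In 8 members the knockouts lay between Control replicate 3 and the other controls: Lor, Sprr4, Lce6a, Lce1b, Lce1a2, Lce1c, Lce1l and Crct1. In bulk tissue, fewer cells of a type and less RNA per cell cannot be told apart.

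**Figure D1:**
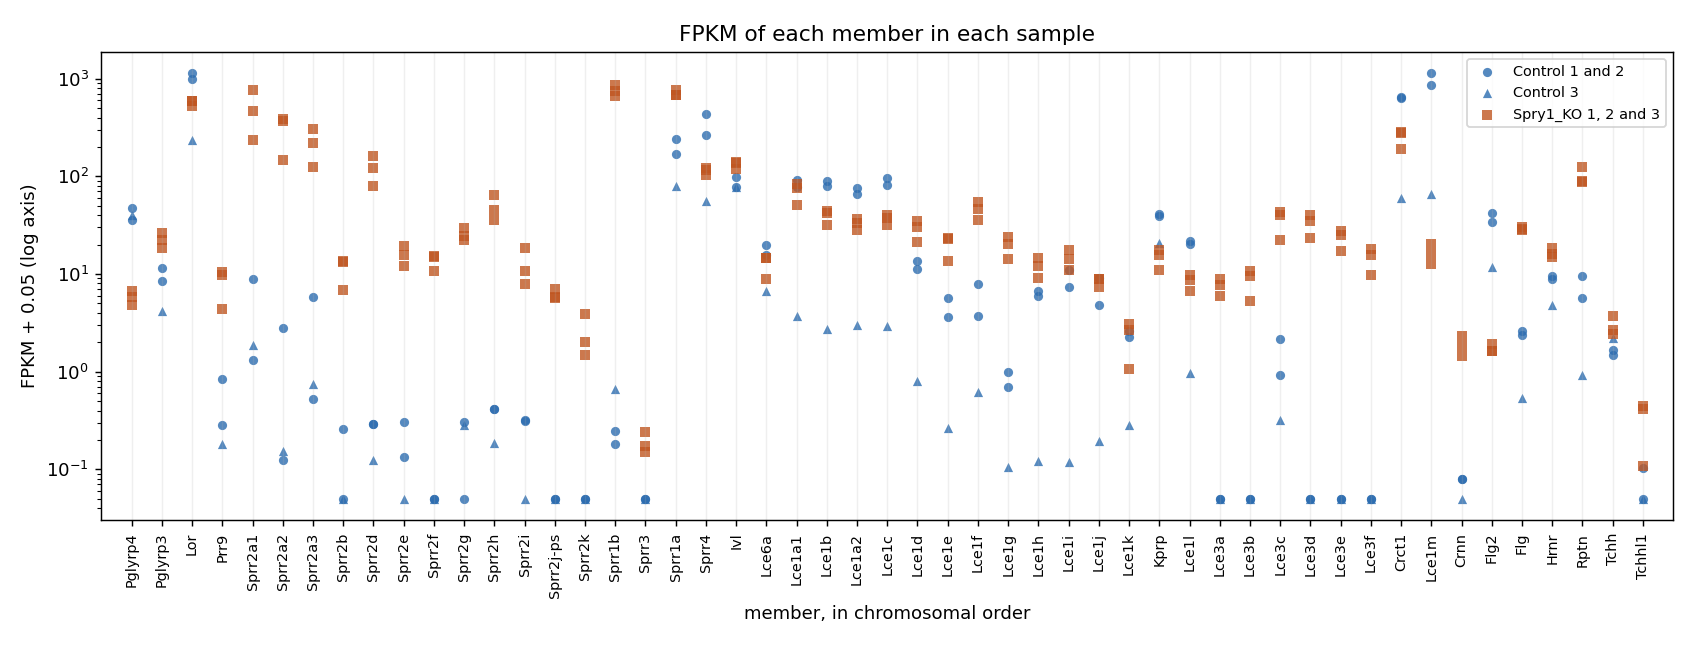
FPKM + 0.05 on a log axis for 51 members in their order along chromosome 3, with 1 point per sample: circles for Control replicates 1 and 2, a triangle for Control replicate 3 and squares for the knockouts. The Sprr2 and Lce3 genes show the knockouts far above all controls, and the Lce1 genes show the triangle far below the other controls.

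The Sprr genes gained most in summed FPKM. Of 17 members, 15 were higher in every knockout than in every control, against 34.9% of all tested genes. Of the 15 tested, 11 passed the filter only through the knockouts and so had to be higher there. Of the other 4, Sprr1a, Sprr2a1 and Sprr2a3 rose and Sprr4 did not pass. The sum over the family was 438, 698 and 139 FPKM in the controls, against 2858, 2475 and 3182 FPKM in the knockouts. The make-up of that sum differed too. Sprr1b gave 0.0302%, 0.0283% and 0.444% of it in the controls and 23.0%, 35.0% and 23.5% in the knockouts.

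Sprr1b, a cross-bridging protein of the envelope, lies at chr3:92436809-92438789. It was measured at 0.132, 0.198 and 0.618 FPKM in the controls, which is 2, 3 and 10 reads, and at 658, 867 and 748 FPKM in the knockouts. The groups did not overlap. Its log2 fold change was 9.18 ± 0.16 (SE), and without Control replicate 3 it was 9.34. Its neighbour Sprr1a, at chr3:92483952-92485895, was already expressed in the controls, at 169, 243 and 80.2 FPKM, and reached 764, 679 and 674 FPKM in the knockouts. It rose by 2.23 ± 0.37 on the log2 scale (limma adjusted p 0.00245), and by 1.79 without Control replicate 3 (limma adjusted p 0.000552, with a range of 0.000496 to 0.0121 over all 14 alternatives). The ratio of Sprr1b to Sprr1a was at most 0.00771 in the controls and ran from 0.861 to 1.28 in the knockouts, so these genes stood at similar levels only in the knockouts.

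The Sprr2 genes, the largest group of small proline-rich genes in the mouse, went from near 0 to high levels together. Their sum was 3.04, 18.7 and 3.08 FPKM in the controls, against 1313, 825 and 1644 FPKM in the knockouts. This rests on 114, 956 and 158 reads against 66246, 29652 and 72583 reads. Most of it came from Sprr2a1, Sprr2a2 and Sprr2a3. These summed to 1.83, 17.4 and 2.63 FPKM in the controls, against 1060, 505 and 1449 FPKM in the knockouts. Control replicate 2 was the highest control and Spry1_KO replicate 2 the lowest knockout for this sum, with no overlap. The other Sprr2 genes summed to 1.21, 1.33 and 0.448 FPKM in the controls, against 252, 320 and 195 FPKM in the knockouts. In this sum Control replicates 1 and 2 lay close together and Spry1_KO replicate 2 was the highest knockout, though it was the lowest for Sprr2f and Sprr2g.

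The 3 Sprr2a genes can be told apart only in part. Of the 100-base windows of the longest Sprr2a1 transcript, 92.5% also occur in a transcript of another gene, and the shares for Sprr2a2 and Sprr2a3 are 92.8% and 36.2%. Exons of Sprr2a1 and Sprr2a2 overlap by 43 bases on the same strand. Sprr2a1 read 1.28, 8.92 and 1.83 FPKM in the controls, against 471, 233 and 761 FPKM in the knockouts, a log2 fold change of 6.77 ± 0.64 (SE, limma adjusted p 0.00024), or 6.52 without Control replicate 3. Sprr2a2 read 0.0754, 2.78 and 0.106 FPKM against 372, 148 and 384 FPKM. Sprr2a3 read 0.476, 5.71 and 0.694 FPKM against 218, 125 and 304 FPKM. The groups did not overlap for any of these, and the division of the summed level among them is uncertain.

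The other Sprr2 genes share at most 1.16% of such windows with another gene, and at most 13.7% of 50-base windows. The read length is not known, so the reads that copies share cannot be set more closely. Sprr2d was the most abundant of them in the knockouts. It was measured at 0.242, 0.241 and 0.0753 FPKM in the controls, against 121, 160 and 80.0 FPKM in the knockouts, a log2 fold change of 6.62 ± 0.24 (SE), or 6.55 without Control replicate 3. Sprr2h came next in the knockouts, with 0.365, 0.364 and 0.136 FPKM against 44.9, 65.1 and 36.0 FPKM and a log2 fold change of 5.23 ± 0.21 (SE), or 5.14 without Control replicate 3. Both share their order among the knockouts, with replicate 2 highest and replicate 3 lowest. Sprr2g, annotated as a polymorphic pseudogene, read 0.253, 0 and 0.236 FPKM in the controls, against 24.4, 22.3 and 29.9 FPKM in the knockouts. Sprr2e read 0.0848, 0.254 and 0 FPKM against 15.5, 19.5 and 12.1 FPKM. Sprr2i read 0.267, 0.266 and 0 FPKM against 10.8, 18.3 and 7.88 FPKM. In all 3 every knockout was above every control. Sprr2b had 0.209 FPKM in Control replicate 2, was at 0 in the other controls, and reached 13.3, 13.6 and 6.82 FPKM in the knockouts. Sprr2f was at 0 in every control and at 14.9, 10.7 and 15.1 FPKM in the knockouts. Sprr2j-ps, named as a pseudogene but annotated as protein-coding, was at 0 in every control and at 5.58, 6.97 and 5.74 FPKM in the knockouts. The least abundant tested member, Sprr2k, was at 0 in every control and at 1.95, 3.89 and 1.43 FPKM in the knockouts. No fold is given against a group at 0, where a count of 0 still allows up to 3 reads in a library.

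Sprr4 did not share this pattern. It was among the 5 most abundant members in the controls. It was measured at 266, 437 and 55.3 FPKM in the controls, against 123, 104 and 117 FPKM in the knockouts. The knockouts lay between Control replicate 3 and the other controls. Its log2 fold change was -0.70 ± 0.69 (SE, 95% interval -2.34 to 0.93), which did not pass (limma adjusted p 0.418). Without Control replicate 3 it fell by 1.57 on the log2 scale (limma adjusted p 0.00176, with a range of 0.00176 to 0.914 over all 14 alternatives). Sprr3, a gene of internal stratified epithelia, was below the filter, at 0 in every control and between 0.0995 and 0.189 FPKM in the knockouts.

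The 250 bases before the RefSeq start (GRCm38.p6) are shown for 3 Sprr genes that rose and for Sprr4, where these windows differ in a pair of short motifs. The annotated Sprr4 transcript is only 231 bases long, so its start may not be where transcription begins. Its lack of matches can therefore not be read as a difference between promoters. Capitals mark matches to TGANTCA and to TATAAA, the letters of the TATA box, on either strand. TGANTCA is a loose form of the letters that AP-1 factors bind, in which N is any base. The regions are chr3:92438780-92439029 (minus strand) for Sprr1b, chr3:92338890-92339139 (plus) for Sprr2d, chr3:92385435-92385684 (plus) for Sprr2h and chr3:92500494-92500743 (minus) for Sprr4.
Sprr1b: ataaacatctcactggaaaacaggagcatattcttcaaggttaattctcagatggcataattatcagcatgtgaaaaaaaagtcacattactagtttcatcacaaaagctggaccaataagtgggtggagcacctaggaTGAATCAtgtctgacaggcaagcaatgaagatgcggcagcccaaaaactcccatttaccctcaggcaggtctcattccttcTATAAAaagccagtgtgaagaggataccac
Sprr2d: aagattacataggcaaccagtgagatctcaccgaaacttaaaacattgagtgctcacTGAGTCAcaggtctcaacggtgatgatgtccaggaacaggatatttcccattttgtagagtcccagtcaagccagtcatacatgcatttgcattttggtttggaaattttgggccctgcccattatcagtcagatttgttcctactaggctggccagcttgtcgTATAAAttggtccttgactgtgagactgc
Sprr2h: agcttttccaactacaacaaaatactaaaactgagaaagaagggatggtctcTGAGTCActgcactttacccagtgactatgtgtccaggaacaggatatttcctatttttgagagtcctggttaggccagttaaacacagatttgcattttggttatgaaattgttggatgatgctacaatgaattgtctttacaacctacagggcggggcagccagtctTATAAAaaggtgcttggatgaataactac
Sprr4: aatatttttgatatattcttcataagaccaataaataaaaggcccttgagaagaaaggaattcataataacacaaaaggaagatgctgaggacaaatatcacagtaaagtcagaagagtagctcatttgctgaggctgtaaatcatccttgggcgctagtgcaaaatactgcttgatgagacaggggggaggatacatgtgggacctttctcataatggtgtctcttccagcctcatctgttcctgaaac

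Of 10 Sprr2 genes with a sequence in the RefSeq table, 7 held TGANTCA: Sprr2b, Sprr2d, Sprr2e, Sprr2f, Sprr2h, Sprr2i and Sprr2k. In each of these 7 a match began between 193 and 198 bases before the start, and in the same 7 a TATAAA began 29 bases before it. The windows of Sprr2a1, Sprr2a2 and Sprr2a3 held neither. RefSeq and the annotation used for gene positions place the starts of these genes differently, and the windows of Sprr2a1 and Sprr2a2 end inside the genes. These windows may not cover the promoters, so the absence cannot be read as a difference from the other Sprr2 genes. Sprr1b held TGANTCA at 111 and TATAAA at 30 bases before the start, and Sprr1a held TGANTCA at 146 and 116 and TATAAA at 43. The windows of Sprr2b, Sprr1a and Sprr1b also reach into the genes by the annotation used for gene positions. Their distances hold for the RefSeq start only. Over all 32851 promoters of the table, 6.75% held TGANTCA and 12.4% held TATAAA in this window. Among 44 members with a sequence, 17 (38.6%) held TGANTCA and 21 (47.7%) held TATAAA. Of the other motifs searched, AGGAAG (the core bound by ETS factors) was in 22 of the 44 members (50%) and 29.5% of all promoters, CCACCC (KLF) in 10 (22.7%) and 28.1%, TTCNNNGAA (STAT) in 2 (4.55%) and 7.02%, and AACNGGTT (GRHL) in 1 (2.27%) and 1.79%. Matches describe the letters only. The Sprr2 copies are related in sequence, so their matches are not independent of each other.

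The Lce3 genes were nearly silent in the controls and were expressed in every knockout. Lce3a, Lce3b, Lce3d, Lce3e and Lce3f were at 0 in all 3 controls, and Lce3c alone gave the control reads of the group. The 6 genes summed to 2.13, 0.868 and 0.271 FPKM in the controls, from 22, 9 and 3 reads, and to 144, 137 and 83.7 FPKM in the knockouts, from 1618, 1331 and 768 reads. The 5 genes at 0 in the controls passed the filter only through the knockouts and so had to be higher there. Lce3c was tested with at least 1 FPKM in both group means, and rose.

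Lce3c, at chr3:92944486-92945733, was measured at 2.13, 0.868 and 0.271 FPKM in the controls, against 40.5, 43.5 and 22.4 FPKM in the knockouts. Its log2 fold change was 4.17 ± 0.37 (SE, limma adjusted p 0.000196), and 3.86 without Control replicate 3. Lce3d, at chr3:92957390-92958505, reached 40.4, 34.7 and 23.3 FPKM in the knockouts. These were the most abundant Lce3 genes. The knockout values were 27.3, 25.3 and 17.1 FPKM for Lce3e, 18.0, 15.6 and 9.75 FPKM for Lce3f, 9.47, 10.6 and 5.30 FPKM for Lce3b and 8.79, 7.66 and 5.87 FPKM for Lce3a. Spry1_KO replicate 3 was the lowest knockout for each of the 6. Lce3c, Lce3d, Lce3e and Lce3f share between 24.1% and 43.0% of their 100-base windows with another gene, so the split among these 4 is less certain than their sum.

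Lce6a, a single gene between Ivl and the Lce1 genes, was at 15.7, 19.7 and 6.58 FPKM in the controls, against 14.6, 14.5 and 8.79 FPKM in the knockouts. The groups overlapped. Its log2 fold change was -0.05 ± 0.38 (SE, 95% interval -0.96 to 0.86, limma adjusted p 0.927), and without Control replicate 3 it was -0.48 (limma adjusted p 0.123, with a range of 0.0974 to 0.947 over all 14 alternatives).

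The 14 Lce1 genes, which encode late envelope proteins of resting skin, did not move together. Lce1e, Lce1f and Lce1g rose, the last having passed the filter only through the knockouts, Lce1m fell, and 10 did not pass. These 3 and 1 of 14 are no larger shares than the 29.6% and 24.4% of all tested genes. Their median log2 fold change was 1.16, and 0.08 without Control replicate 3. That library was the lowest control for all 14 and stood at a median of 4.33% of the other controls. Without it, 5 of the 14 rose, 5 fell and 4 did not pass, against 31.6% and 26.3% of all tested genes.

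Lce1m, at chr3:93017810-93019060, was the second most abundant member in the controls after Lor. It was measured at 1136, 852 and 66.6 FPKM in the controls, against 16.1, 20.2 and 12.7 FPKM in the knockouts. Every knockout was below every control. It fell by 4.56 on the log2 scale (95% interval -6.94 to -2.18, limma adjusted p 0.00804), and by 5.85 without Control replicate 3 (limma adjusted p 3.7e-05, with a range of 3.7e-05 to 0.0324 over all 14 alternatives). Lce1m made up 74.0%, 68.3% and 81.4% of the Lce1 sum in the controls and 3.96%, 5.32% and 4.62% in the knockouts. Control replicate 3 did not differ from the other controls in this share as it did in the level.

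Lce1g, at chr3:92750148-92752338, went the other way, from 0.652, 0.946 and 0.0555 FPKM in the controls to 20.2, 23.7 and 14.3 FPKM in the knockouts. The log2 fold change of Lce1g was 3.73 ± 0.27 (SE), or 3.48 without Control replicate 3. The ratio of Lce1g to Lce1m was at most 0.00111 in the controls and at least 1.12 in the knockouts. Lce1f, at chr3:92718685-92720350, read 3.69, 7.89 and 0.564 FPKM against 54.2, 46.8 and 35.4 FPKM, a log2 fold change of 3.51 ± 0.58 (SE, limma adjusted p 0.00244), or 2.83 without Control replicate 3. Lce1e, at chr3:92707401-92709074, read 3.55, 5.61 and 0.216 FPKM against 23.4, 22.9 and 13.7 FPKM, a log2 fold change of 2.62 ± 0.60 (SE, limma adjusted p 0.00945), or 1.90 without Control replicate 3. For both the groups did not overlap.

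Lce1d read 11.1, 13.6 and 0.757 FPKM in the controls, against 34.9, 29.9 and 21.1 FPKM in the knockouts. Lce1h read 5.91, 6.66 and 0.0727 FPKM against 14.4, 12.1 and 9.13 FPKM. In both, every knockout was above every control, but the low Control replicate 3 widened the spread and neither passed (limma adjusted p 0.0536 and 0.082). Without that library both rose, by 1.13 and 0.80 on the log2 scale, with limma adjusted p of 0.00593 and 0.011 (ranges over all 14 alternatives 0.00593 to 0.137 and 0.011 to 0.187).

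Lce1b, Lce1c, Lce1a2 and Lce1l changed their reading with that 1 library. Lce1b was at 88.8, 78.9 and 2.70 FPKM in the controls, against 44.0, 41.9 and 31.8 FPKM in the knockouts. Lce1c was at 95.9, 81.7 and 2.91 FPKM against 40.4, 37.8 and 31.9 FPKM. Lce1a2 was at 75.4, 65.2 and 2.94 FPKM against 36.6, 33.4 and 28.3 FPKM. For these 3 and for Lce1l, which was at 21.8, 20.3 and 0.919 FPKM against 9.73, 8.69 and 6.62 FPKM, the knockouts lay below 2 controls and above Control replicate 3. None passed with all samples (log2 fold changes 0.42, 0.25, 0.31 and -0.08, limma adjusted p 0.783, 0.871, 0.827 and 0.949). Without Control replicate 3 all 4 fell, by 1.09, 1.25, 1.08 and 1.25 on the log2 scale (limma adjusted p 0.00194, 0.000628, 0.00105 and 0.00113, with a range of 0.000628 to 0.985 for the 4 over all 14 alternatives).

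Lce1a1, Lce1i, Lce1j and Lce1k passed in neither fit. Lce1a1 was at 77.5, 92.1 and 3.64 FPKM in the controls, against 83.9, 76.8 and 50.7 FPKM in the knockouts. Lce1i was at 7.28, 10.8 and 0.0702 FPKM against 17.6, 14.2 and 10.9 FPKM. Lce1j was at 4.76, 8.95 and 0.146 FPKM against 8.92, 8.85 and 7.26 FPKM, and Lce1k at 2.23, 2.56 and 0.232 FPKM against 2.63, 3.04 and 1.01 FPKM. Control replicates 1 and 2 lay close to the knockouts for Lce1a1 and Lce1k. Leaving out Lce1m, the Lce1 genes summed to 399, 395 and 15.2 FPKM in the controls, against 391, 360 and 262 FPKM in the knockouts. Lce1 transcripts share at most 4.90% of their 100-base windows with another gene, and at most 27.1% of 50-base windows (Lce1i), so shared reads cannot be set more closely without the read length.

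**Figure D2:**
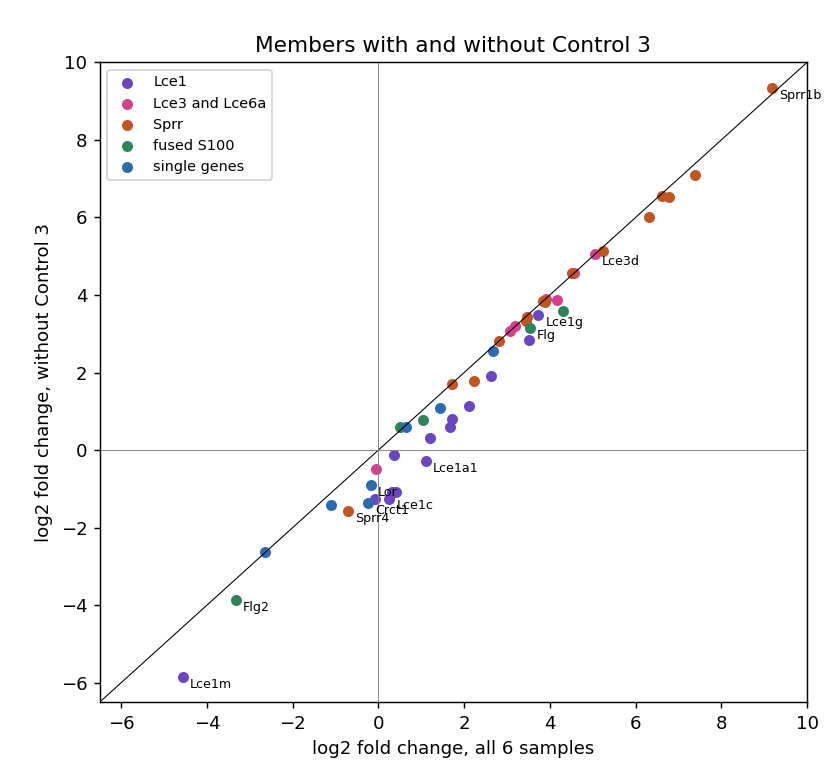
Log2 fold change of each tested member (log2(FPKM + 1), knockout minus control) with all samples on the x axis and without Control replicate 3 on the y axis, coloured by subfamily. Points below the diagonal have a lower value without that library, which holds for all 14 Lce1 genes, and the Lce3 and most Sprr genes lie near the diagonal.

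The sequences before the starts of Lce3d, Lce1g and Lce1m are shown because these genes were among the Lce genes that differed most, in opposite directions. Capitals again mark TGANTCA and TATAAA. The regions are chr3:92957140-92957389 (plus strand) for Lce3d, chr3:92752339-92752588 (minus) for Lce1g and chr3:93019062-93019311 (minus) for Lce1m.
Lce3d: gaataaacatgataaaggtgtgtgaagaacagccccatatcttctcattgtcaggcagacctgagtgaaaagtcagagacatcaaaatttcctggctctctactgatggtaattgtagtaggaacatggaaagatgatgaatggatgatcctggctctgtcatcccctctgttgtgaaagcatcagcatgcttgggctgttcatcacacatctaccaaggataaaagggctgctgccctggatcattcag
Lce1g: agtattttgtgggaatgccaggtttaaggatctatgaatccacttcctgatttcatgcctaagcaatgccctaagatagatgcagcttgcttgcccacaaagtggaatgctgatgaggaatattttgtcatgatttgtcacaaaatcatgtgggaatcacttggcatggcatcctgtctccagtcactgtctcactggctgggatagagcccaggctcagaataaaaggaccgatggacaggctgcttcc
Lce1m: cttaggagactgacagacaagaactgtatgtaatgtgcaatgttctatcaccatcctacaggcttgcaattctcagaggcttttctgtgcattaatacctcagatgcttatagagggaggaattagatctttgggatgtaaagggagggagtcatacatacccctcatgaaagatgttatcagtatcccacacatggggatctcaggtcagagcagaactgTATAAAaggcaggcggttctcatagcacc

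TGANTCA was in none of 13 Lce1 and none of 6 Lce3 promoters. Of the Lce1 genes, Lce1d and Lce1m held TATAAA, at 30 and 29 bases before the start, and these went in opposite directions where they were called. In Lce1m the match began as far from the start as in the 7 Sprr2 genes.

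Of the 7 fused S100 genes 5 were tested, of which 4 rose and 1 fell, against 29.6% and 24.4% of all tested genes. Flg, Hrnr, Rptn and Tchh rose, Flg2 fell, and Crnn and Tchhl1 were below the filter. The call for Tchh did not hold under all alternatives. The family summed to 65.4, 52.5 and 20.0 FPKM in the controls, against 140, 181 and 138 FPKM in the knockouts. No 100-base window of these genes occurred in another gene's transcript. Repeats within a gene were not counted, and how reads matching several places were handled is not known.

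Flg and Flg2 changed places. Flg, the gene for profilaggrin at chr3:93273523-93293686, was measured at 2.53, 2.30 and 0.493 FPKM in the controls, against 28.0, 30.4 and 28.8 FPKM in the knockouts. It rose by 3.53 ± 0.31 on the log2 scale (SE, limma adjusted p 0.000193), and by 3.14 without Control replicate 3 (limma adjusted p 1.65e-05, with a range of 1.65e-05 to 0.0017 over all 14 alternatives). Flg2, its relative at chr3:93197278-93221391, was measured at 42.2, 34.3 and 11.7 FPKM in the controls, against 1.85, 1.57 and 1.57 FPKM in the knockouts. It fell by 3.33 ± 0.43 on the log2 scale (SE, limma adjusted p 0.000825), and by 3.88 without Control replicate 3 (limma adjusted p 2.21e-05, with a range of 2.21e-05 to 0.00532 over all 14 alternatives). The ratio of Flg to Flg2 was 0.0600, 0.0671 and 0.0422 in the controls and 15.1, 19.4 and 18.3 in the knockouts. Control replicate 3 was low for both genes and lay near the other controls in their ratio.

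The 250 bases before the starts of these neighbours are shown with the same capitals, at chr3:93273296-93273545 for Flg and chr3:93197023-93197272 for Flg2, both on the plus strand.
Flg: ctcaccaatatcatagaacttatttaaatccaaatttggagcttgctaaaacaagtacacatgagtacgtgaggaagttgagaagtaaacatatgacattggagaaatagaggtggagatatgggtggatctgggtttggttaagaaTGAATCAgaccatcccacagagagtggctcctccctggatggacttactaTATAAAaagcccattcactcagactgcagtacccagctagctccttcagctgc
Flg2: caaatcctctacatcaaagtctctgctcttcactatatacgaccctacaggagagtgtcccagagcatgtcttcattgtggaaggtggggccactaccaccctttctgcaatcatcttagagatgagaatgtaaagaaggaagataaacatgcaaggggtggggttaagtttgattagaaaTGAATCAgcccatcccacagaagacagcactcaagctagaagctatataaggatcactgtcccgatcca

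Both held TGANTCA, in Flg at 103 and in Flg2 at 69 bases before the RefSeq start, and in both the match read TGAATCA. The annotation used for gene positions starts Flg at 93273523, inside its window, so these distances cannot be compared between the genes. Flg also held TATAAA. Over the family, 5 of 7 promoters held TGANTCA (Crnn, Flg2, Flg, Rptn and Tchhl1) and 4 of 7 held TATAAA. The middle base of TGANTCA was A or T in all 5, and A in Sprr1b, whereas it was G or C in the Sprr2 matches.

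Rptn, which encodes repetin, an envelope precursor, lies at chr3:93393699-93399442. It was measured at 9.57, 5.62 and 0.879 FPKM in the controls, against 90.2, 125 and 87.2 FPKM in the knockouts. It was the most abundant fused S100 gene in the knockouts, and its log2 fold change was 4.30 ± 0.59 (SE, limma adjusted p 0.00108), or 3.59 without Control replicate 3. Hrnr, the gene for hornerin at chr3:93319749-93333570, read 9.41, 8.76 and 4.78 FPKM against 14.8, 18.2 and 16.2 FPKM, a log2 fold change of 1.05 ± 0.23 (SE, limma adjusted p 0.00735), or 0.78 without Control replicate 3. Tchh, the gene for trichohyalin, which is best known from the inner root sheath of the hair follicle, read 1.62, 1.44 and 2.18 FPKM against 2.60, 3.62 and 2.40 FPKM. It rose by 0.49 ± 0.16 on the log2 scale (SE, limma adjusted p 0.0379), a call lost under 8 of the 14 alternatives, where the adjusted p ran up to 0.217. Crnn, the gene for cornulin, read at most 0.0294 FPKM in the controls, against 2.27, 1.79 and 1.40 FPKM in the knockouts. It passed the filter without Control replicate 3, but only through the knockouts. Tchhl1 stayed at or below 0.390 FPKM in every sample.

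Of the 7 single genes, Ivl, Prr9 and Pglyrp3 rose (Prr9 having passed the filter only through the knockouts), Pglyrp4 and Kprp fell, and Lor and Crct1 did not pass. Over all tested genes 29.6% rose and 24.4% fell, and the share of single genes that fell was near the latter. Without Control replicate 3, 3 of the 7 rose and 4 fell, against 31.6% and 26.3% of all tested genes. Ivl, the gene for involucrin at chr3:92570902-92573735, was measured at 76.9, 97.6 and 77.7 FPKM in the controls, against 139, 119 and 138 FPKM in the knockouts. The groups did not overlap, and Control replicate 3 was not low for this gene. Its log2 fold change was 0.65 ± 0.12 (SE, limma adjusted p 0.00451), or 0.60 without Control replicate 3. Prr9, a gene for a proline-rich protein of the locus, read 0.788, 0.231 and 0.130 FPKM against 9.72, 4.34 and 10.3 FPKM, a log2 fold change of 2.67 ± 0.32 (SE), or 2.54 without Control replicate 3.

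Lor, the gene for loricrin at chr3:92080271-92083142, was the most abundant member in the controls. It was measured at 1135, 995 and 238 FPKM in the controls, against 597, 597 and 523 FPKM in the knockouts, which lay between Control replicate 3 and the others. With all samples its log2 fold change was -0.18 ± 0.56 (SE, limma adjusted p 0.811). Without that library it fell by 0.90 on the log2 scale (limma adjusted p 0.00223, with a range of 0.00223 to 0.906 over all 14 alternatives). Crct1, a gene for a cysteine-rich protein next to Lce1m, read 638, 648 and 60.6 FPKM against 282, 278 and 191 FPKM. It did not pass with all samples (limma adjusted p 0.831) and fell by 1.38 on the log2 scale without Control replicate 3 (limma adjusted p 0.00187, with a range of 0.00187 to 0.965 over all 14 alternatives). Kprp, the gene for a keratinocyte proline-rich protein at chr3:92823074-92827247, read 41.5, 38.8 and 20.6 FPKM against 17.6, 15.4 and 10.96 FPKM. It fell by 1.11 ± 0.29 on the log2 scale (SE, limma adjusted p 0.0157), and by 1.42 without Control replicate 3. The call was lost without Control replicate 1 (limma adjusted p 0.0509) and without Spry1_KO replicate 3 (0.0549), within a range of 0.00109 to 0.0549 over all 14 alternatives.

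Pglyrp3 and Pglyrp4 encode peptidoglycan recognition proteins, which bind bacterial cell walls. Pglyrp3, at chr3:92014583-92031582, read 8.52, 11.5 and 4.17 FPKM in the controls, against 26.2, 22.2 and 18.3 FPKM in the knockouts, a log2 fold change of 1.44 ± 0.31 (SE, limma adjusted p 0.00794), or 1.08 without Control replicate 3. Pglyrp4, at chr3:90726906-90741517, read 47.0, 35.3 and 40.4 FPKM against 5.74, 6.72 and 4.75 FPKM. It fell by 2.64 ± 0.15 on the log2 scale (SE, limma adjusted p 3.77e-05), and by as much without Control replicate 3, which was at 98.3% of the other controls for this gene. The ratio of Pglyrp3 to Pglyrp4 was at most 0.325 in the controls and at least 3.30 in the knockouts.

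**Figure D3:**
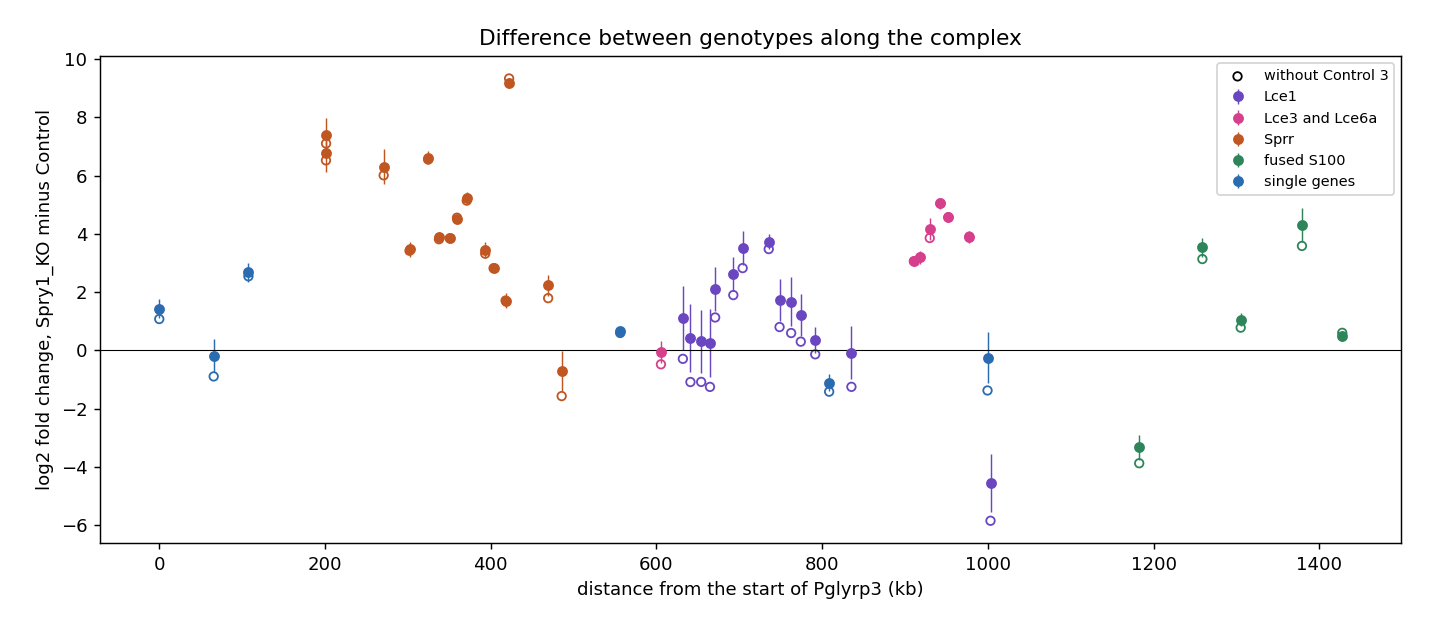
Log2 fold change with its SE for the tested members by distance in kb from the start of Pglyrp3, without Pglyrp4, coloured by subfamily; open circles give the value without Control replicate 3. The Sprr2 genes and the Lce3 genes form runs of neighbours with values above 1, and Lce1m and Flg2 lie at -4.56 and -3.33.

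Along the chromosome, neighbours often moved together, but genes that fell lay between genes that rose. The Sprr2 genes from Sprr2a1 to Sprr2k and Sprr1b form a run of members without a fall, and so do Lce3a to Lce3f. Within the row of Lce1 genes the log2 fold change was larger in the middle than at the ends, a pattern seen in the plot along the complex. It was 1.11 at Lce1a1, 3.51 at Lce1f, 3.73 at Lce1g and 0.35 at Lce1k with all samples, and -0.29, 2.83, 3.48 and -0.14 without Control replicate 3. Crct1 and Lce1m follow after Lce3f, whose end at 92993426 lies before the start of Crct1 at 93014205, and neither rose. Flg2 and Flg are direct neighbours among the members and moved in opposite directions.

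**Figure D4:**
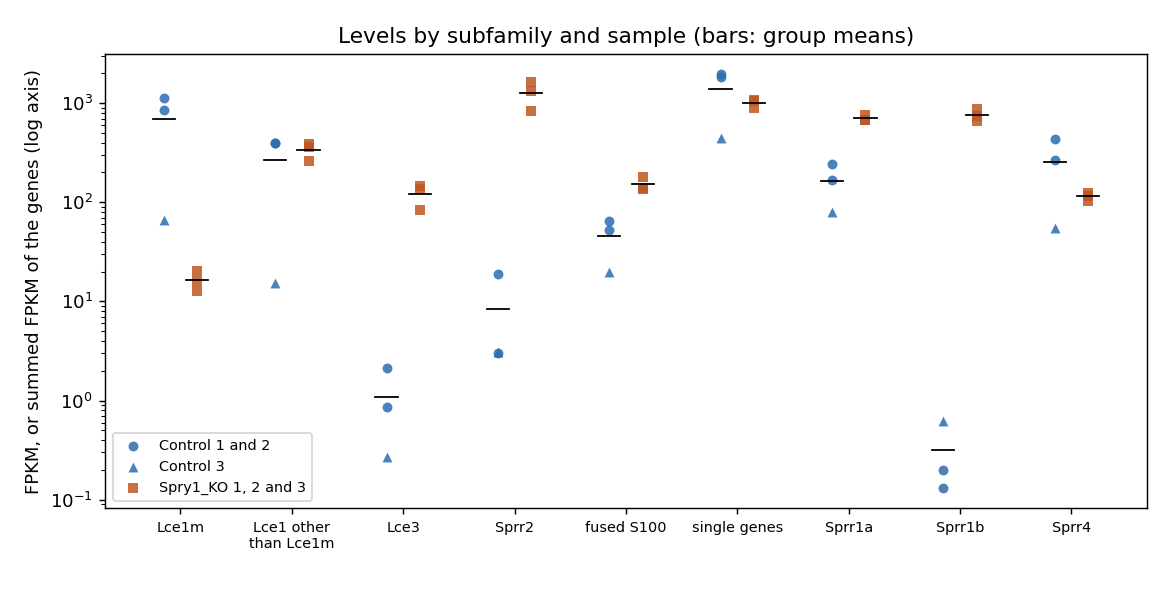
FPKM of single members (Lce1m, Sprr1a, Sprr1b, Sprr4) and summed FPKM of subfamilies on a log axis, with 1 point per sample, bars at the group means and a triangle for Control replicate 3. The sums of Sprr2, Lce3 and fused S100 genes in the knockouts lie above every control, and the sums of Lce1 genes other than Lce1m and of the single genes lie between Control replicate 3 and the highest control.

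Summed over subfamilies, the single genes gave 1947, 1826 and 441 FPKM in the controls, against 1077, 1043 and 896 FPKM in the knockouts. The Lce1 genes gave 1534, 1248 and 81.8 FPKM against 407, 380 and 275 FPKM. The order of abundance changed with genotype. The 5 most abundant members were Lor, Lce1m, Crct1, Sprr4 and Sprr1a by control mean, and Sprr1b, Sprr1a, Lor, Sprr2a1 and Sprr2a2 by knockout mean. Lor had 789 ± 483 FPKM in the controls, against 572 ± 42.7 FPKM in the knockouts (SD, n = 3 each), and Sprr1b had 758 ± 105 FPKM in the knockouts. In the knockouts the values of Sprr1b and Sprr1a overlapped, and all lay above those of Lor.

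Enzymes that cross-link the envelope or process filaggrin mostly rose where they passed. Of 12 tested genes on this list, 6 rose and 1 fell (7 and 2 without Control replicate 3), with a median log2 fold change of 0.93, against 0.03 over all genes, of which 29.6% rose and 24.4% fell. Casp14, a protease of filaggrin breakdown, rose from 26.3 ± 2.87 to 151 ± 13.7 FPKM (SD, n = 3 each; limma adjusted p 1.7e-05), a log2 fold change of 2.48, or 2.56 without Control replicate 3. Blmh, bleomycin hydrolase, which also acts on filaggrin fragments, rose from 29.1 to 90.2 FPKM. Furin, a profilaggrin convertase, rose from 8.49 to 19.2 FPKM, and Tgm1, the transglutaminase of the keratinocyte membrane, from 14.9 to 50.8 FPKM. Control replicate 3 was not below 50% of the other controls for any of these 4.

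Envelope and suprabasal genes outside the complex went both ways. Of 14 tested, 4 rose and 7 fell (4 and 8 without Control replicate 3), with a median log2 fold change of -0.57. The share that rose was near the 29.6% of all tested genes, and 24.4% of those fell. Krt1, a suprabasal keratin, rose from 782 to 3009 FPKM, while Ppl, the gene for the envelope scaffold periplakin, fell from 164 to 77.1 FPKM. Sbsn, the gene for suprabasin, fell from 496 to 183 FPKM, and Krt2 fell from 3.02 to 0.0944 FPKM.

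Of 25 tested transcription factors known to act on the complex, 6 rose and 8 fell (7 and 7 without Control replicate 3), with a median log2 fold change of -0.18. These shares are near the 29.6% and 24.4% of all tested genes. Gata3 fell from 88.9 ± 9.98 to 18.4 ± 3.95 FPKM (SD, n = 3 each; limma adjusted p 9.78e-05), by 2.23 on the log2 scale, and by 2.32 without Control replicate 3. Stat3 rose from 18.7 to 39.1 FPKM and Nfe2l2, which encodes NRF2, from 16.7 to 39.8 FPKM. The Fos and Jun genes of AP-1 were looked at after their values were seen. Jun fell by 1.32 and Jund by 0.73 on the log2 scale (limma adjusted p 0.0332 and 0.0175). Without Control replicate 3, Jund still passed and Jun did not (limma adjusted p 0.00225 and 0.083). Fos, Fosl2 and Junb passed in neither fit. Fosl1 read 0.900, 1.41 and 22.3 FPKM in the controls, against 13.6, 17.9 and 28.8 FPKM in the knockouts, so that Control replicate 3 lay among the knockouts, and it did not pass (limma adjusted p 0.093). Without that library its log2 fold change was 3.24 in place of 2.09 and it rose (limma adjusted p 0.000473, with a range of 0.000473 to 0.248 over the 13 alternatives that gave a value).

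Markers of other cell types were low beside those of keratinocytes. The 9 markers of epidermal keratinocytes summed to between 15569 and 17493 FPKM in the controls and between 22331 and 28194 FPKM in the knockouts. Of these 9, 4 rose and 5 fell, led by Dsg1a, Krt15, Krt1 and Krt14. Of 17 genes of the hair follicle sheath and shaft, 10 stayed under 1 FPKM in all samples, and the sums ran from 11.5 to 13.6 FPKM in the controls, against 12.2 to 16.6 FPKM in the knockouts. Of the 3 tested, Hoxc13 rose by 0.89 and Msx2 fell by 0.62 on the log2 scale, a fall not called without Control replicate 3. Of 6 genes of esophagus and forestomach, both tested genes rose, Gsdmc by 5.23 and Tgm3 by 1.46 on the log2 scale, while the defining keratins Krt4 and Krt13 stayed at or below 1.23 and 0.270 FPKM. Skeletal muscle markers summed to between 17.8 and 66.4 FPKM in the controls and between 3.89 and 5.84 FPKM in the knockouts, and all 6 tested fell, led by Acta1, Pvalb, Atp2a1 and Ckm. Fibroblast markers summed to between 21.9 and 34.8 FPKM in the controls and between 25.1 and 27.6 FPKM in the knockouts. Most of the knockout sums came from Sparc, at 13.1, 14.3 and 18.4 FPKM in the controls against 23.7, 21.8 and 20.7 FPKM in the knockouts. Every other fibroblast marker had a lower mean in the knockouts. Sparc was called higher and Dpt, Col1a2 and Col3a1 lower (1 higher and 1 lower without Control replicate 3). Their part in the results for the complex was not tested.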

How the data were processed

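RNA was measured in 3 control and 3 Spry1_KO samples. The authors deposited 1 table of FPKM values with 1 column per sample. HISAT2 2.0.5, featureCounts 1.5.0-p3 and the build GRCm38 are named per the submitters' processing notes. The read length, annotation release, strand, FPKM formula and handling of multi-mapping reads were not given in the sources used here. Positions came from GENCODE M21 by gene ID (54495 matched) and promoters from RefSeq. FPKM times exon length gave whole reads for 97.0% to 97.3% of values above 0 (tolerance 0.1 reads). The total that the scaling implies was 106%, 105% and 109% of these recovered reads in Control replicates 1 to 3. It was 101%, 95.8% and 92.9% in Spry1_KO replicates 1 to 3. Relative to the controls, the deposited knockout values are therefore higher than scaling by recovered reads would give. TPM scaling and limma-voom do not use this total. Why it differs was not tested.

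Genotypes were compared on log2(FPKM + 1) in limma 3.58.1 under R 4.3.3 (trended variance, two-sided, genotype only) for all genes whose mean reached 1 FPKM, with Benjamini-Hochberg adjustment over all genes at 0.05. Fold changes are on that scale and understate low genes. It was tested on simulated data. Any member may be named, and of each other list up to 4 genes past the threshold with the lowest p. A gene that this rule selects is not reported here. Members and lists were chosen with earlier results of these data known. Alternatives were a pseudocount of 0.1, no filter, array weights, TPM, a replicate block, median-ratio scaling, limma-voom on recovered reads, leaving out each sample, and Control replicate 3 with Spry1_KO replicate 2. Figures used matplotlib 3.10.9 under Python 3.11.15.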

Additional observations from a re-analysis of the deposited data

How the results depend on the processing

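Median-ratio scaling changed no call among the 48 tested members. Under TPM scaling the median over all genes shifted by -0.28 on the log2 scale (limma-voom by -0.14) and gave 2248 higher and 5200 lower genes in place of 3736 and 3079, and among members it ended only the call for Tchh. Leaving out Control replicate 3 moved members most, alone or with Spry1_KO replicate 2: 11 members fell, with 5 Lce1 genes higher and 5 lower, 1 Sprr gene lower and 4 single genes lower. Array weights also gave 1 Sprr gene lower. Lce1 genes higher came to 5 without Control replicate 2 as well, and single genes lower to 1 without Control replicate 1 or Spry1_KO replicate 3.

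Signs turned in genes that did not pass with all samples. Without Control replicate 3, and without it and Spry1_KO replicate 2, the log2 fold change was -0.29 and -0.37 for Lce1a1, -1.09 and -1.14 for Lce1b, -1.08 and -1.10 for Lce1a2, -1.25 and -1.28 for Lce1c, and -0.14 and -0.33 for Lce1k. With array weights it was -0.70 for Lce1b, -0.74 for Lce1a2 and -0.88 for Lce1c. Without Control replicate 1 and without Control replicate 2 it was 0.23 and 0.14 for Lor, 0.09 and 0.25 for Lce6a, 0.53 and 0.48 for Lce1l, and 0.31 and 0.32 for Crct1. Without Spry1_KO replicate 3 it was 0.17 for Lce6a and 0.06 for Lce1l, which also gave 0.12 with a pseudocount of 0.1 and 0.027 in limma-voom. The cause was not tested. With 1 sample left out, these ran from -0.90 to 0.23 for Lor, -0.48 to 0.25 for Lce6a, -0.29 to 1.87 for Lce1a1, -1.09 to 1.21 for Lce1b, -1.08 to 1.06 for Lce1a2, -1.25 to 1.06 for Lce1c, -0.14 to 0.66 for Lce1k, -1.25 to 0.53 for Lce1l and -1.38 to 0.32 for Crct1.

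Leaving out 1 sample at a time, all genes gave 3112 to 3977 higher and 2424 to 3313 lower, and members 28 to 33 higher and 3 to 11 lower. By subfamily, the ranges were 3 to 5 higher and 1 to 5 lower for Lce1, 6 to 6 and 0 to 0 for Lce3 with Lce6a, 13 to 14 and 0 to 1 for Sprr, 3 to 5 and 1 to 1 for fused S100, and 3 to 3 and 1 to 4 for single genes.

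With the replicate number as a block, 3216 genes were higher and 2618 lower, 31 members were higher, and 5 Lce1 and 3 fused S100 genes were higher. Deviations of same-numbered samples correlated at -0.098, -0.111 and -0.125, and no control correlated best with the knockout of its own number. These values gave no sign that the numbers pair the samples, but with so few samples they cannot exclude it. Genes with few control reads, such as Sprr1b with 2, 3 and 10, have folds limited by counting.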

Other observations

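Within the span of the complex lie 47 genes that are neither members nor S100 genes, and 6 of them were tested. They were looked at after their values were seen. 2310046K23Rik, at chr3:92532505-92534511 between Sprr4 and Ivl, read 93.5, 96.4 and 31.1 FPKM in the controls, against 568, 312 and 389 FPKM in the knockouts, a log2 fold change of 2.63 ± 0.45 (SE, limma adjusted p 0.00293). 2310050C09Rik, at chr3:92868359-92870216 between Lce1l and Lce3a, read 184, 168 and 119 FPKM against 28.4, 25.6 and 18.6 FPKM and fell by 2.64 ± 0.21 on the log2 scale (SE, limma adjusted p 0.000128). Gm9774 among the Sprr2 genes also rose and Gm43735 fell, while Gm4202 and 2210017I01Rik did not pass (limma adjusted p 0.264 and 0.591).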
